A study of Homo sapiens with 6 samples.

Results

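The fibrillar collagen genes encode the chains of the collagens that assemble into banded fibres outside the cell. The genes described here are COL1A1, COL1A2, COL2A1, COL3A1, COL5A1, COL5A2, COL5A3, COL11A1, COL24A1 and COL27A1, chosen by symbol. The choice was made with earlier results of these data known. All 10 were found among the 60748 genes of the deposited table, and 8 of them were among the 18275 genes with enough counts to be tested. COL5A3 and COL24A1 were not tested.

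RNA-seq was performed on 6 libraries of LX-2, a line of human hepatic stellate cells that grew in DMEM with fetal bovine serum for 24 h. In 3 libraries the cells carried the empty lentiviral vector GV367 (LX-2Vector), and in 3 libraries they stably overexpressed fibroblast activation protein α (FAPα, gene FAP) from the same vector backbone (LX-2FAP). The vector has a ubiquitin promoter, EGFP and puromycin resistance in both groups, stable clones were selected with puromycin, and how many clones stood behind each line was not given in the sources used here. The comparison addressed which transcripts differ when a stellate cell line makes FAPα. Nothing in the labels says that the libraries of a group came from separate cultures, so the p-values measure only the spread between these libraries.

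Fibrillar collagens are made as procollagens, in which 3 chains wind into a long triple helix that requires glycine at regular positions along each chain. Procollagen is hydroxylated and folded in the endoplasmic reticulum, secreted, trimmed at both ends and crosslinked into fibrils. In the liver, activated hepatic stellate cells are known as the main source of the type I and type III collagen that forms scar tissue. FAPα is a membrane serine protease that can cut after glycine-proline pairs and is known to degrade partly digested collagen.

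The repeat that defines the family could be read in the reference coding sequences of all 10 genes (GENCODE 29, GRCh38). The longest run of glycine codons (GGN), each followed by a pair of other codons, held between 337 and 343 repeat units in COL1A1, COL1A2, COL2A1, COL3A1, COL5A1, COL5A2, COL5A3 and COL11A1. It held 216 units in COL24A1 and 217 in COL27A1. Each repeat unit is 9 bases, and every exon that lay wholly inside the run was a multiple of 9 bases long in all 10 genes. Exons of exactly 54 bases made up 21 of the 41 such exons in COL1A1 and 31 of 48 in COL11A1.

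The first 54 bases of that run are shown for the chains of type I, III and V collagen, because the results turn on these genes and the sequences show what the members have in common. Capitals mark the glycine codons. The stretches lie at chr17:50198161-50198441 (minus strand, exons 6 and 7) for COL1A1, chr7:94401612-94404600 (plus strand, exons 6 and 7) for COL1A2, chr2:188987113-188988107 (plus strand, exons 5 and 6) for COL3A1, chr9:134752601-134753858 (plus strand, exons 14 and 15) for COL5A1 and chr2:189086726-189088703 (minus strand, exons 8 and 9) for COL5A2. The intron between the exons is left out.
COL1A1: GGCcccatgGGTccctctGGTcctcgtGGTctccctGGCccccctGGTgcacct
COL1A2: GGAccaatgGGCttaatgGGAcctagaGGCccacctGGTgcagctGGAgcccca
COL3A1: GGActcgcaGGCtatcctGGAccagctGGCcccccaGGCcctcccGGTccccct
COL5A1: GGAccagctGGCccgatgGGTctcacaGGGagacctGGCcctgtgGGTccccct
COL5A2: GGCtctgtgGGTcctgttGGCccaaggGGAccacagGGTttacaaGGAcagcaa

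Further along the same repeat, the chains of type I and type III collagen carry the bond at which interstitial collagenase, the product of MMP1, makes its first cut. The site is shown because the transcript of that enzyme was called in the opposite direction to COL1A1 and COL3A1. Capitals mark the codons on either side of the cut bond. The stretches lie in coding exons at chr17:50189222-50189275 (minus strand, exon 40) for COL1A1, chr7:94424336-94424389 (plus strand, exon 41) for COL1A2 and chr2:189004135-189004301 (plus strand, exons 39 and 40, intron left out) for COL3A1.
COL1A1: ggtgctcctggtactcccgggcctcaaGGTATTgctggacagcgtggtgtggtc
COL1A2: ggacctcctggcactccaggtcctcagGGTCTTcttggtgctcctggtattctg
COL3A1: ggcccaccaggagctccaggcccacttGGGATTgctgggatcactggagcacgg

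Library depth ranged from 17355700 to 26352060 counts. FAP itself was counted 49, 42 and 55 times in the LX-2Vector libraries and 14864, 15160 and 14805 times in the LX-2FAP libraries, a log2 fold change of 8.33 (SE 0.13, adjusted p = 4.47e-16 by edgeR). CPM here is the count of a gene after scaling for library depth by the TMM method, and FPKM, which also divides by gene length, was taken as deposited. On the first principal component (36.2% of the variance) the LX-2Vector libraries lay between -20.7 and -11.6, LX-2FAP replicates 2 and 3 lay at 25.4 and 17.0, and LX-2FAP replicate 1 lay at 1.91, nearest to the controls. Of 14 stellate cell and myofibroblast markers, 8 reached 1 FPKM, with VIM highest at 301 FPKM in LX-2Vector, whereas LRAT, a marker of quiescent stellate cells, had 0 counts in every library. Markers of other cell types were low. Their summed FPKM over all libraries ranged from 2.17 to 3.09 for hepatocytes (mostly SERPINA1, with TTR at 0), from 0.974 to 1.45 for liver endothelium (PECAM1 highest, CLEC4G at 0), from 2.53 to 2.96 for leukocytes (CD14 highest), from 2.27 to 3.42 for epithelium (CLDN4 highest) and from 2.11 to 2.65 for chondrocytes (MATN3 highest, COL9A1 at 0). The hepatocyte, endothelial, leukocyte and chondrocyte sums were lower in every LX-2FAP library than in every LX-2Vector library. Of single tested genes, 13.4% did not overlap in that direction in CPM. The endothelial marker VWF, named after its value was seen, was called lower (log2 fold change -1.06, adjusted p = 0.0268 by edgeR). It stayed called in 2 of 6 fits with 1 library left out. The part of these markers in the collagen results was not tested.

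LX-2Vector cells expressed 4 fibrillar collagen genes well above the others. By mean FPKM in LX-2Vector the order was COL1A1 (34.3), COL5A2 (23.1), COL5A1 (11.0), COL3A1 (6.22), COL27A1 (0.940), COL1A2 (0.109), COL2A1 (0.0820), COL11A1 (0.0622), COL5A3 (0.0155) and COL24A1 (0.00796). Neighbours in this order did not overlap over the 3 LX-2Vector libraries, except COL5A3 and COL24A1, whose ranges overlapped. COL2A1 stood above COL11A1 only through the gene lengths used (6662 and 9091 bases), because its counts were not higher in any LX-2Vector library. The LX-2FAP libraries kept the order in 3 of 3 libraries, except for COL2A1 above COL11A1 (2 of 3) and COL5A3 above COL24A1 (1 of 3). Among the 41175 genes with a count, the FPKM of COL1A1 in LX-2Vector stood at percentile 97.2, COL5A2 at 95.3, COL5A1 at 89.3 and COL3A1 at 83.6, and COL1A2 stood at 35.8.

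**Figure D1:**
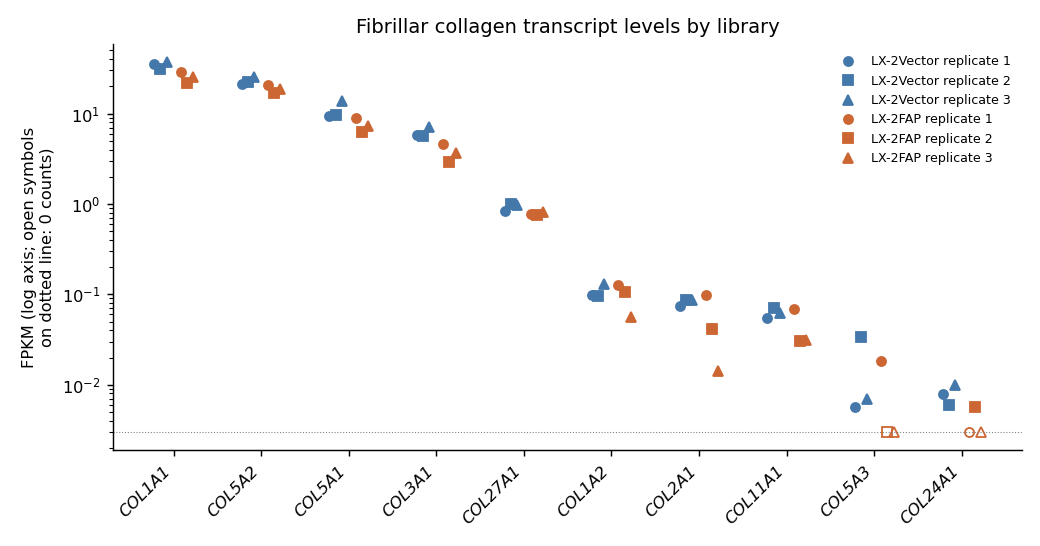
FPKM of the 10 fibrillar collagen genes on a log axis, ordered by their mean in LX-2Vector, with 1 symbol per library (blue LX-2Vector, orange LX-2FAP; open symbols on the dotted line stand for 0 counts). COL1A1, COL5A2, COL5A1 and COL3A1 lie above 1 FPKM in all 6 libraries, and COL1A2 lies near 0.1 FPKM.

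Against this background, 4 of the 10 genes fell in LX-2FAP cells: COL1A1, COL3A1, COL5A1 and COL5A2 (edgeR quasi-likelihood test, adjusted p under 0.05 over all 18275 tested genes). None was called higher by edgeR, DESeq2 or limma, or had a higher level at an unadjusted p under 0.05. Over all tested genes 5.29% were called, 2.73% lower and 2.57% higher. The groups did not overlap in CPM for these 4 genes, which was true in the same direction of 13.4% of all tested genes. COL27A1, COL1A2, COL2A1 and COL11A1 were tested and not called.

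COL1A1, on chromosome 17 (50183289-50201632, minus strand), encodes the α1 chain, which supplies most of the type I collagen trimer. Its CPM was 316, 275 and 328 in the LX-2Vector libraries and 265, 199 and 232 in the LX-2FAP libraries. Every LX-2FAP library was below every LX-2Vector library, with LX-2FAP replicate 1 closest to the controls. The mean went from 306 ± 27.8 to 232 ± 32.9 CPM (SD, n = 3), and the fitted log2 fold change was -0.40 (SE 0.08, 95% interval -0.57 to -0.23, adjusted p = 0.0135 by edgeR). The call was lost without LX-2Vector replicate 1 (log2 fold change -0.38, adjusted p = 0.0543 by edgeR), LX-2FAP replicate 2 (-0.30, adjusted p = 0.0555) or LX-2FAP replicate 3 (-0.40, adjusted p = 0.0864). In bulk RNA, fewer cells that express a collagen and less RNA per cell cannot be told apart.

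COL3A1 encodes the only chain of type III collagen, a homotrimer that is laid down together with type I collagen. It showed the largest fitted decrease of the 4 called genes. The gene lies on chromosome 2 (188974320-189012746, plus strand), next to COL5A2. Its CPM was 39.5, 37.8 and 47.7 in LX-2Vector and 31.6, 19.9 and 25.2 in LX-2FAP. The groups were apart, and LX-2FAP replicate 1 was again the library closest to the controls. The mean fell from 41.7 ± 5.25 to 25.6 ± 5.85 CPM (SD, n = 3), which the fit gave as a log2 fold change of -0.69 (SE 0.12, adjusted p = 0.00765 by edgeR). Without LX-2FAP replicate 3 the log2 fold change was -0.68 and the edgeR adjusted p was 0.0693. Without any other single library the gene stayed called, at log2 fold changes between -0.88 and -0.55.

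Type V collagen is a minor component that is built into type I fibrils and is known to control where they start and how wide they grow. COL5A1 encodes its α1 chain (chromosome 9, 134641774-134844843, plus strand). Its CPM was 105, 107 and 153 in LX-2Vector and 101, 70.2 and 81.5 in LX-2FAP. LX-2Vector replicate 3 stood well above the other controls, while LX-2FAP replicate 1 came close to the lower of them. The mean fell from 122 ± 27.3 to 84.2 ± 15.6 CPM (SD, n = 3), and the fitted log2 fold change was -0.52 (SE 0.13, adjusted p = 0.0293 by edgeR). The call was lost without LX-2Vector replicate 3 (log2 fold change -0.31, adjusted p = 0.0813 by edgeR), LX-2FAP replicate 2 (-0.41, adjusted p = 0.127) or LX-2FAP replicate 3 (-0.50, adjusted p = 0.147).

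COL5A2 encodes the α2 chain of type V collagen (chromosome 2, 189031896-189225312, minus strand). Its CPM was 155.5, 163 and 184 in LX-2Vector and 155.1, 126 and 139 in LX-2FAP. LX-2FAP replicate 1 and LX-2Vector replicate 1 were practically level, so only a small gap separated the groups. The mean fell from 168 ± 14.9 to 139.7 ± 14.8 CPM (SD, n = 3), and the fitted log2 fold change was -0.26 (SE 0.07, adjusted p = 0.0418 by edgeR), the smallest of the called members. The call was lost without LX-2Vector replicate 2 (log2 fold change -0.27, adjusted p = 0.0790 by edgeR), LX-2Vector replicate 3 (-0.18, adjusted p = 0.157), LX-2FAP replicate 2 (-0.19, adjusted p = 0.186) or LX-2FAP replicate 3 (-0.25, adjusted p = 0.178).

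**Figure D2:**
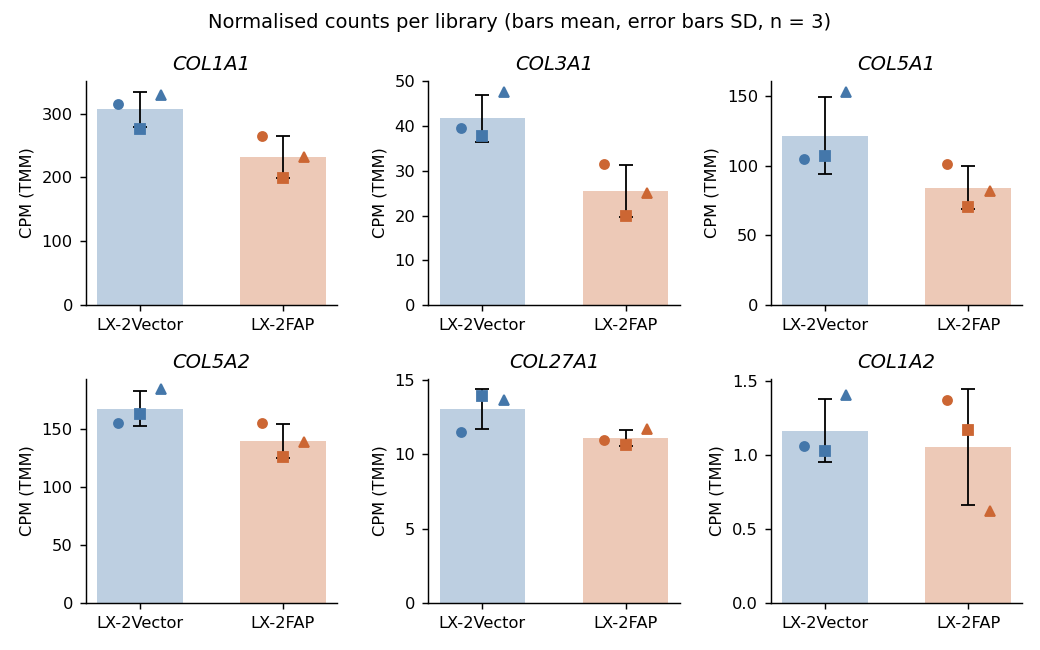
TMM-scaled CPM of 6 fibrillar collagen genes in each library (circles, squares and triangles are replicates 1, 2 and 3; bars are means and error bars SD, n = 3; each vertical axis starts at 0). In COL1A1, COL3A1, COL5A1 and COL5A2 all LX-2FAP libraries lie below all LX-2Vector libraries, with replicate 1 the highest LX-2FAP library and replicate 2 the lowest, whereas COL27A1 and COL1A2 overlap.

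The libraries of LX-2FAP took the same order in all 4 called genes: replicate 1 was highest, replicate 3 was in between and replicate 2 was lowest. The CPM of FAP ran the other way in these libraries, at 620.1 in replicate 1, 707 in replicate 3 and 843 in replicate 2. On the first principal component over all tested genes, replicates 1, 3 and 2 also lay in this order, at 1.91, 17.0 and 25.4. The order is therefore not particular to the collagens. These are 3 libraries, the order was seen after the values were known, and it was not tested.

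The 4 calls did not hold equally under other tests of the same table. With the Wald test of DESeq2 only COL3A1 passed (DESeq2 adjusted p = 0.0229), and COL1A1 (0.0513), COL5A1 (0.165) and COL5A2 (0.149) did not, where 3.42% of all genes with an adjusted p were called lower. With a trend of each library on GC content removed, 1.06% of genes were called lower, COL3A1 again was the only member called (adjusted p = 0.0158 by edgeR), and the log2 fold change of COL1A1 was -0.26 (adjusted p = 0.0511 by edgeR). With limma on log2(FPKM + 1) no member passed, where 2 genes in all did (0.00547% lower), and 4 of the 8 tested members had an unadjusted p under 0.05 and a lower level, as had 13.5% of all tested genes. The fitted log2 fold change of each of the 4 called genes was negative under every one of these settings. It was also negative with any library left out, but groups that do not overlap in CPM nearly fix that sign in advance.

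**Figure D3:**
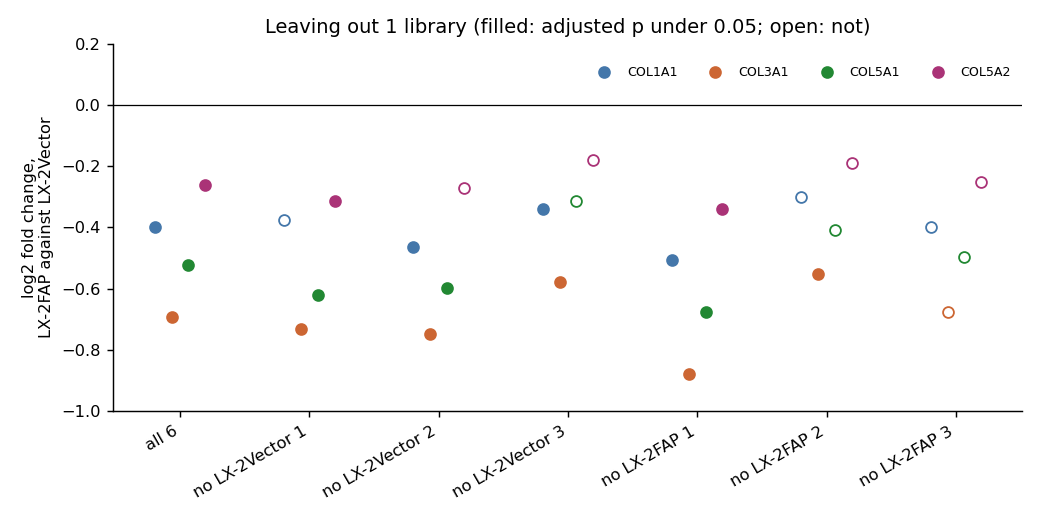
Log2 fold change (LX-2FAP against LX-2Vector, edgeR) of the 4 called genes with all 6 libraries and with each library left out in turn; filled points have an adjusted p under 0.05. All points are below 0, which is nearly fixed in advance because the groups do not overlap in CPM. All 4 genes are called without LX-2FAP replicate 1, and no gene is called without LX-2FAP replicate 3.

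COL1A2 encodes the α2 chain, the partner of COL1A1 in type I collagen (chromosome 7, 94394561-94431232, plus strand). It was barely detected, with 28, 18 and 30 counts in LX-2Vector and 33, 21 and 13 in LX-2FAP. LX-2FAP replicate 1 had the most counts of the 6 and replicate 3 the fewest, and the groups overlapped. The log2 fold change was -0.13 (SE 0.28, 95% interval -0.72 to 0.46, adjusted p = 0.833 by edgeR), and it turned to 0.03 without LX-2Vector replicate 3 and to 0.14 without LX-2FAP replicate 3. A change of the size seen in COL1A1 lies inside that interval and was not detectable at this depth.

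The level of COL1A1 over that of COL1A2, as a ratio of FPKM, was 358, 322 and 280 in LX-2Vector and 231, 205 and 449.7 in LX-2FAP. LX-2FAP held both the lowest and the highest ratio. The means were 319.8 ± 39.0 and 295 ± 134 (SD, n = 3), with p = 0.9 by a two-sided exact permutation test, in a design that cannot go below 0.1. FPKM here divides by the gene lengths used by the authors, 9007 bases for COL1A1 and 10817 for COL1A2. Their reference transcripts are 6727 and 5411 bases long, so the size of the ratio depends on the length chosen, and its comparison between groups does not.

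For the chains of type V collagen, the FPKM of COL5A1 over that of COL5A2 was 0.441, 0.429 and 0.544 in LX-2Vector and 0.427, 0.366 and 0.386 in LX-2FAP. The groups did not overlap, but the lowest control and the highest LX-2FAP library were almost equal. The log2 ratio of the group means was -0.26, and -0.15 without LX-2Vector replicate 3. The means were 0.471 ± 0.0632 and 0.393 ± 0.0310 (SD, n = 3; exact permutation p = 0.1, the smallest this design allows).

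COL27A1, on chromosome 9 (114155560-114312511, plus strand), encodes the chain of type XXVII collagen, known from cartilage. Its CPM was 11.5, 14.0 and 13.7 in LX-2Vector and 11.0, 10.7 and 11.7 in LX-2FAP. LX-2Vector replicate 1 fell within the range of LX-2FAP. The log2 fold change was -0.22 (SE 0.09, 95% interval -0.42 to -0.02, adjusted p = 0.172 by edgeR).

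COL2A1, the chain of the main collagen of cartilage, had 13, 10 and 12 counts in LX-2Vector and 16, 5 and 2 in LX-2FAP. COL11A1, a chain of type XI collagen that accompanies it, had 13, 11 and 12 counts in LX-2Vector and 15, 5 and 6 in LX-2FAP. In both genes LX-2FAP replicate 1 had the most counts of the 6 libraries and the other LX-2FAP libraries the fewest, so the groups overlapped. Both passed the count filter on their LX-2Vector counts. Log2 fold changes were -0.55 (SE 0.46, 95% interval -1.53 to 0.42, adjusted p = 0.525 by edgeR) for COL2A1 and -0.42 (SE 0.37, 95% interval -1.20 to 0.37, adjusted p = 0.557 by edgeR) for COL11A1.

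COL5A3, the third type V chain, had 1, 4 and 1 counts in LX-2Vector and 3, 0 and 0 in LX-2FAP. COL24A1, encoding type XXIV collagen, had 2, 1 and 2 counts in LX-2Vector and 0, 1 and 0 in LX-2FAP. At these depths a count of 0 allows up to 3 counts in a library, so no difference could be read for either gene. For COL5A3 the ratio of the summed counts, scaled by depth, was 0.519 with a 95% counting interval of 0.0839 to 2.43, and the interval covers counting error only. Part of COL5A3 (4.0% of its exon bases) also overlaps AC008742.1 on the other strand, and the use of strand in counting was not given in the sources used here.

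**Figure D4:**
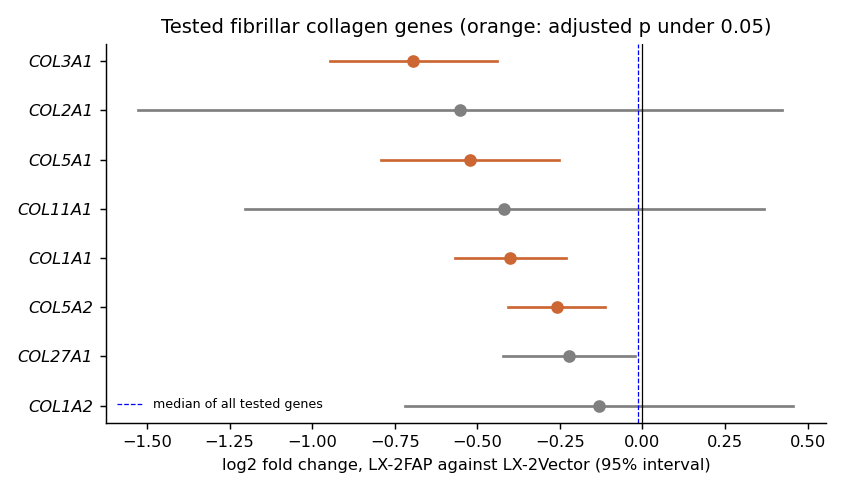
Log2 fold change of the 8 tested fibrillar collagen genes, LX-2FAP against LX-2Vector, with 95% intervals (edgeR; orange genes have an adjusted p under 0.05, grey genes do not). COL3A1, COL5A1, COL1A1 and COL5A2 lie clear of the dashed median of all tested genes at -0.01, and the intervals of COL2A1, COL11A1 and COL1A2 span 0.

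Summed over all 10 genes, fibrillar collagen CPM was 629, 599.7 and 729.8 in LX-2Vector and 566, 427 and 490.3 in LX-2FAP. All LX-2FAP libraries were below all controls, and replicate 1 was again the highest of them. The mean fell by 24.2%, from 653 ± 68.2 to 495 ± 69.7 CPM (SD, n = 3; exact permutation p = 0.1, the smallest this design allows). Summed FPKM fell by 25.4%, and the sum without COL1A1 fell by 24.2%. The genes together took 0.0658% of all counts in LX-2Vector and 0.0489% in LX-2FAP.

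The mix of fibrillar transcripts was compared as the share of summed fibrillar FPKM. COL1A1 made up 45.3% ± 2.58 in LX-2Vector and 45.05% ± 0.415 in LX-2FAP (SD, n = 3; exact permutation p = 1.0). COL5A2 made up 30.5% ± 1.499 and 33.5% ± 1.16 (exact permutation p = 0.1), COL5A1 14.4% ± 1.79 and 13.1% ± 0.604 (exact permutation p = 0.3). COL3A1 made up 8.19% ± 0.208 in LX-2Vector and 6.56% ± 0.593 in LX-2FAP (exact permutation p = 0.1). The groups were apart for COL3A1 and COL5A2, the called genes with the largest and the smallest fitted decrease, and the level of COL3A1 over COL1A1 was 0.181 ± 0.0133 against 0.145 ± 0.0129 (SD, n = 3; exact permutation p = 0.1). The p-values of the shares are not adjusted over the genes, and none can go below 0.1.

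Promoter sequence from RefSeq (GRCh38.p14) was matched for 5 of the 10 genes, COL5A1, COL5A3, COL11A1, COL24A1 and COL27A1. COL5A1 is the only called member among them, and the 250 bases before the start of one of its 2 RefSeq entries (chr9:134641553-134641802, plus strand) are shown. GENCODE 29 starts the gene at 134641774, inside the end of this window. Capitals mark the GC box letters GGGCGG on either strand, which occurred 2 times here and at least 1 time in 42.6% of all 35116 promoters of the same length. Neither CCAAT (32.0% of promoters) nor TATAAA (10.7%) was found in this window, and 74.0% of its bases were G or C.
COL5A1: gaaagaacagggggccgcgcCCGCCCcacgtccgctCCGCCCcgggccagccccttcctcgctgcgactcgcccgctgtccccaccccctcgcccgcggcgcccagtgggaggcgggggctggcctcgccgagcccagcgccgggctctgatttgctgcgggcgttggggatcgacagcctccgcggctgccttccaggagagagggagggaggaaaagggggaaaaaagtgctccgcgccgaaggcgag

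Among collagens that attach to or run beside fibrils, COL6A1, COL6A2 and COL16A1 fell. Of 13 such genes 5 were tested, these 3 were called lower and none higher, where 2.73% of all tested genes were called lower, with a median log2 fold change of -0.32 against -0.01 over all genes tested. COL6A1 and COL6A2, chains of the beaded filaments of type VI collagen, fell from 112 ± 10.6 to 89.7 ± 6.67 CPM (log2 fold change -0.32, SE 0.07, adjusted p = 0.0144 by edgeR) and from 105 ± 6.86 to 80.5 ± 5.34 CPM (-0.39, SE 0.06, adjusted p = 0.00386; SD, n = 3). COL16A1, a fibril-associated collagen, fell from 10.3 ± 0.452 to 7.21 ± 1.09 CPM (log2 fold change -0.50, SE 0.11, adjusted p = 0.0194 by edgeR). COL6A2 kept its call with any library left out and with the GC trend removed, where its log2 fold change was -0.21 (adjusted p = 0.0275 by edgeR). COL6A1 lost it without LX-2FAP replicate 2 (-0.28, adjusted p = 0.0746 by edgeR) or 3 (-0.30, adjusted p = 0.106) and with the GC trend removed (-0.16, adjusted p = 0.159). COL16A1 lost it without any one of LX-2Vector replicates 1 and 3 and LX-2FAP replicates 2 and 3 (-0.52 to -0.42, adjusted p from 0.0532 to 0.128 by edgeR) and with the GC trend removed (-0.35, adjusted p = 0.0689).

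In the machinery that folds and exports procollagen, 1 gene was called lower and 1 higher. Of 18 tested genes for folding and hydroxylation, 1 was called, where 5.29% of all tested genes were called, with a list median log2 fold change of -0.12. It was PLOD1, a lysyl hydroxylase, at 134 ± 6.52 and 118 ± 7.45 CPM (log2 fold change -0.19, SE 0.05, adjusted p = 0.0492 by edgeR). The PLOD1 call was lost with the GC trend removed (log2 fold change -0.07, adjusted p = 0.4 by edgeR), with the gene length trend removed (-0.14, adjusted p = 0.0839) and without any one of LX-2Vector replicates 1 and 3 and LX-2FAP replicates 2 and 3 (-0.17 to -0.15, adjusted p from 0.133 to 0.282). P4HB, the shared subunit of prolyl hydroxylases and the most abundant of the list, had a log2 fold change of -0.06 (adjusted p = 0.405 by edgeR) and 0.06 with the GC trend removed. Of 13 tested secretion genes, 1 was called higher and none lower (list median 0.03). That gene, TMEM38B, an ion channel of the endoplasmic reticulum, was at 63.7 ± 1.64 CPM in LX-2Vector and 76.0 ± 5.90 in LX-2FAP (log2 fold change 0.26, SE 0.06, adjusted p = 0.0199 by edgeR). The TMEM38B call was lost with the GC trend removed (0.18, adjusted p = 0.0652 by edgeR) and when replicate 1 of LX-2Vector or replicate 2 or 3 of LX-2FAP was left out (0.22 to 0.25, adjusted p from 0.0624 to 0.146). SAR1A, a coat GTPase of export vesicles and the most abundant of them, had a log2 fold change of 0.14 (adjusted p = 0.0916 by edgeR).

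Among enzymes that trim procollagen and crosslink fibrils, ADAMTS14, PCOLCE, BMP1 and LOXL2 fell. Of 15 genes 10 were tested, these 4 were called lower (against 2.73% of all tested genes) and none higher, and all 10 had a log2 fold change below 0 (median -0.44), as had 53.0% of all tested genes. ADAMTS14, a procollagen N-proteinase, went from 2.47 ± 0.319 to 1.34 ± 0.360 CPM (log2 fold change -0.88, SE 0.21, adjusted p = 0.0268 by edgeR). PCOLCE, which enhances removal of the C-propeptide, had a log2 fold change of -0.56 (SE 0.11, adjusted p = 0.0144 by edgeR), and BMP1, the C-proteinase itself, of -0.35 (SE 0.07, adjusted p = 0.0117). LOXL2, a lysyl oxidase and the most abundant of the list, had a log2 fold change of -0.22 (SE 0.06, adjusted p = 0.0339 by edgeR). None of these 4 genes was called by edgeR without LX-2FAP replicate 2 (adjusted p from 0.0541 to 0.158), without LX-2FAP replicate 3 (0.0932 to 0.188) or with the GC trend removed, where the log2 fold changes were -0.73 for ADAMTS14, -0.41 for PCOLCE, -0.21 for BMP1 and -0.11 for LOXL2 (adjusted p = 0.0512, 0.0606, 0.0634 and 0.25). ADAMTS14 and LOXL2 also lost the call without LX-2Vector replicate 1 (-0.76 and -0.23) or 3 (-0.88 and -0.16).

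Among 18 partners of fibril assembly 12 were tested, with 3 called lower, where 2.73% of all tested genes were, and none higher (median -0.25). TNXB, a tenascin that binds fibrils, had a log2 fold change of -0.44 (SE 0.11, adjusted p = 0.0325 by edgeR), THBS2, a matricellular thrombospondin, of -0.44 (SE 0.09, adjusted p = 0.0144) and FN1, fibronectin, of -0.19 (SE 0.05, adjusted p = 0.0498). The groups overlapped for FN1, which also lost its call with DESeq2 size factors (adjusted p = 0.0516 by edgeR) and with the length trend removed (0.0692). None of the 3 was called by edgeR when replicate 1 of LX-2Vector (adjusted p from 0.0501 to 0.11), replicate 2 of LX-2FAP (0.0694 to 0.212) or its replicate 3 (0.101 to 0.228) was left out. Without LX-2Vector replicate 3, TNXB (-0.35) and FN1 (-0.13) were not called, TNXB was not called with the GC trend removed (-0.27, adjusted p = 0.147), and THBS2 was not called by DESeq2 (adjusted p = 0.0629). SPARC, a collagen-binding glycoprotein and the most abundant of the list, was not called (log2 fold change -0.13, adjusted p = 0.102 by edgeR).

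Of 10 tested collagen receptors, 2 were called lower and 1 higher, where 2.73% of all tested genes were called lower and 2.57% higher. DDR1, a receptor tyrosine kinase activated by collagen, had a log2 fold change of -0.31 (SE 0.07, adjusted p = 0.0191 by edgeR), and MRC2, which takes up collagen for degradation, of -0.27 (SE 0.07, adjusted p = 0.0306). ITGA2, the collagen-binding integrin α2 chain, was at 328 ± 23.7 CPM in LX-2Vector and 396 ± 15.7 in LX-2FAP (log2 fold change 0.27, SE 0.05, adjusted p = 0.00957 by edgeR). With the GC trend removed, DDR1 (-0.16, adjusted p = 0.101 by edgeR) and MRC2 (-0.11, adjusted p = 0.297) were not called and ITGA2 was. Without LX-2FAP replicate 3 no receptor was called (DDR1 -0.30, MRC2 -0.27, ITGA2 0.25, adjusted p from 0.0892 to 0.15 by edgeR), and without LX-2Vector replicate 1 or LX-2FAP replicate 2 neither DDR1 (-0.24 and -0.28) nor MRC2 (-0.26 and -0.20) was. MRC2 was not called without LX-2Vector replicate 3 either (-0.21). ITGB1, the integrin partner of ITGA2 and the most abundant of the receptors, had a log2 fold change of 0.09 (adjusted p = 0.143 by edgeR).

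Genes for collagen breakdown moved in both directions. Of 15 tested, 3 were called higher, FAP itself among them, and 3 lower, beside 2.57% and 2.73% of all tested genes. MMP1, the interstitial collagenase whose cut site is shown for COL1A1 and COL3A1, had 584, 663 and 625 CPM in LX-2Vector and 819, 949.9 and 999.8 CPM in LX-2FAP. The groups were well apart, and LX-2FAP replicate 1 was the lowest of its group. The log2 fold change was 0.57 (SE 0.06, adjusted p = 0.000401 by edgeR), and it stayed called with any library left out. MMP3, stromelysin 1, had a log2 fold change of 0.43 (SE 0.12, adjusted p = 0.0498 by edgeR). The gelatinases MMP9 and MMP2, which cut denatured collagen, fell by 0.86 (SE 0.13, adjusted p = 0.00441 by edgeR) and by 0.76 (SE 0.10, adjusted p = 0.00185) on the log2 scale, both also with any library left out, and TIMP2, a metalloproteinase inhibitor, fell by 0.17 (SE 0.04, adjusted p = 0.0451). With 1 library left out, MMP3 (0.31 to 0.61) and TIMP2 (-0.20 to -0.13) were called in 1 of 6 fits each, the one without LX-2FAP replicate 1.

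None of 30 tested regulators of collagen genes, from SMAD and SP factors to the collagen mRNA-binding protein LARP6, was called in the edgeR fit used above (list median log2 fold change -0.03). Over all tested genes 5.29% were called in that fit. In it 6 of the regulators had an unadjusted p under 0.05, as had 22.2% of all tested genes. DESeq2 and limma also called none. Among other edgeR settings, 1 was called with library size alone (5.73% of all tested genes), 1 with the GC trend removed (4.4%) and 2 with the gene length trend removed (9.77%). With no filter on low counts 2 were called (3.9%), and without LX-2FAP replicate 1 there were 3 (10.4%). YBX1, a DNA- and RNA-binding protein and the most abundant of them, had a log2 fold change of 0.03 (SE 0.05, adjusted p = 0.788 by edgeR).

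**Figure D5:**
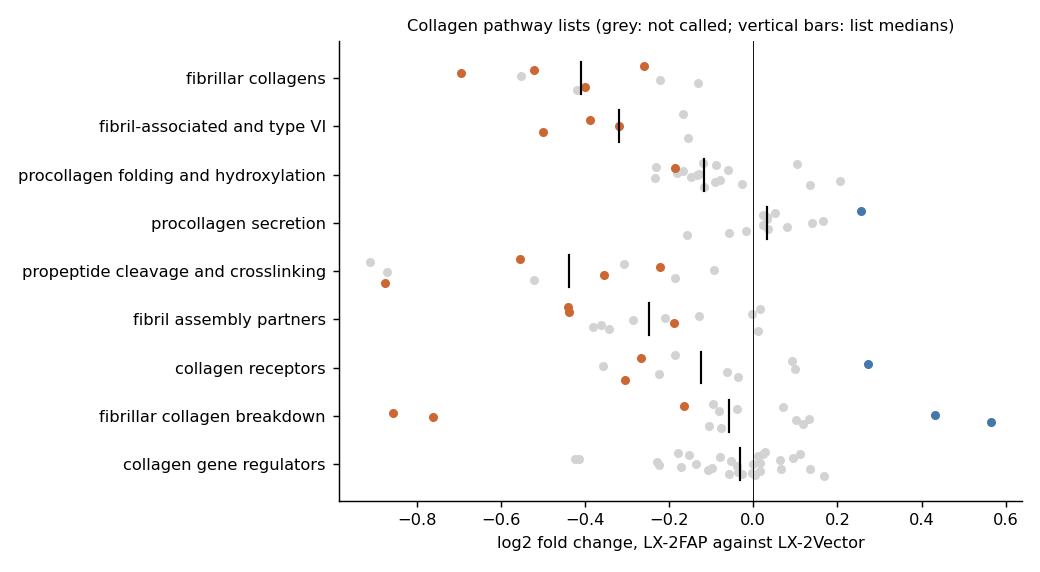
Log2 fold change (LX-2FAP against LX-2Vector, edgeR) of each tested gene in the fibrillar collagen group and 8 lists of the collagen pathway, without FAP itself; orange genes were called lower, blue genes higher, grey genes were not called, and vertical bars are the medians of the genes drawn. Called genes lie on the lower side for fibrillar and fibril-associated collagens and for propeptide cleavage, and on both sides for receptors and breakdown.

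As a description of likeness, log2 CPM over the 6 libraries was correlated with that of COL1A1, the most abundant member, for 11551 other genes whose mean count reached 100. The highest Pearson correlations were those of MRC2 (0.998), FAM193B (0.997), TIMP2 (0.997), SEZ6L2 (0.996) and BAHCC1 (0.996). Among the tested members the correlation was 0.981 for COL3A1, 0.919 for COL5A2 and 0.918 for COL5A1. It was 0.762 for COL11A1, 0.625 for COL2A1, 0.601 for COL27A1 and 0.365 for COL1A2. The 6 points share the difference between the groups and the position of LX-2FAP replicate 1, so no p is given.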

How the data were processed

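The sample titles gave the groups and the replicate numbers. The authors aligned reads with HISAT2 2.0.5, counted them per gene with featureCounts 1.5.0-p3 and deposited whole-number counts, not normalized. They also deposited FPKM, computed by the authors from gene length and count. The labels describe ribosomal RNA depletion and the methods also poly(A) isolation, so the RNA classes kept are not settled. The submitters' notes name hg18, but the table holds Ensembl identifiers and no coordinates. Positions and coding sequences were read from GENCODE 29 (GRCh38) by identifier, and promoters from RefSeq.

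In R 4.3.3, edgeR 4.0.16 (TMM scaling, quasi-likelihood test, no covariate) compared the counts of the 18275 genes that its default filter kept, which asks for 10 counts in enough libraries and 15 in total. P-values were 2-sided, Benjamini-Hochberg adjustment ran over those 18275 genes, and genes with an adjusted p below 0.05 count as called. Standard errors come from the test statistic. Single values per library were compared by exact permutation. In data simulated for this comparison over 17941 genes, the test recovered 95% of genes changed 1.5-fold and 100% of those changed 2-fold, with 9 false calls among 204. Only genes with higher counts were changed, the spread followed the fitted trend, and no library was made to deviate from its group. Changes as small as those fitted for COL1A1, COL5A1 and COL5A2 were not simulated, nor were changes in genes with as few counts as COL1A2. These shares therefore do not give the power or the false calls in the real libraries. Total counts of 17355700 to 26352060 per library set the precision, and intervals on low counts cover counting error only.

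Alternatives were DESeq2 size factors, library size alone, the Wald test of DESeq2 1.42.0, other count filters, limma 3.58.1 on log2(FPKM + 1) and log2(FPKM + 0.1), removal of a loess trend (span 0.5) on gene length or GC content, the replicate number as a block, and each library left out. The reference gave GC content for 98.1% of the genes tested. Sequence shared between transcripts was sought with blastn 2.17.0: no run of 75 identical bases joined any of these collagen transcripts to another gene except for COL5A3 (2.59% of its transcript, shared with AC008742.1).

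Named genes are all members, FAP, up to 4 called genes with the largest change and the most abundant gene of each pathway list, the most abundant marker of each cell type, and the 5 genes most like COL1A1. MMP3 and TIMP2 lie outside that rule in the breakdown list and were added to complete its calls. The members and lists were chosen with earlier results of these data known.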

Additional observations from a re-analysis of the deposited data

How the results depend on the processing

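Of 967 called genes, 498 were lower and 469 higher. This split was 809 and 239 with library size alone, 407 and 614 with the DESeq2 Wald test, 194 and 611 with the GC trend removed and 466 and 1319 with the gene length trend removed. The total was 1606 with no filter on low counts, 1785 with the length trend removed and 2 with limma at either pseudocount, and ranged from 26 (without LX-2FAP replicate 3) to 1949 (without LX-2FAP replicate 1) with 1 library left out. The 4 fibrillar collagen calls became 1 with the DESeq2 Wald test, 1 with the GC trend removed, 0 with limma at either pseudocount, where 4 had an unadjusted p under 0.05, and 0 to 4 with 1 library left out. Without LX-2FAP replicate 3, none was called by edgeR and 5 had an unadjusted p under 0.05. The 21 called genes of the pathway lists, FAP among them, became 1 with limma at either pseudocount, which was FAP itself. With 1 library left out they became 5 to 34. FAP was called throughout, at log2 fold changes from 6.27 to 8.45.

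The log2 fold change of COL1A2 turned from -0.13 to 0.03 without LX-2Vector replicate 3 and to 0.14 without LX-2FAP replicate 3. That of P4HB became 0.058 with the GC trend removed. That of YBX1 became -0.001 with library size alone and -0.004 without LX-2Vector replicate 2. The log2 ratio of COL1A1 to COL1A2 ranged from -0.55 to 0.09 with 1 library left out, from -0.12 with all of them, and was 0.033 without replicate 1 of LX-2FAP and 0.09 when its replicate 2 was dropped. None of these values passed a test, and the cause of each change was not tested. The summed level and the COL5A1 to COL5A2 ratio kept their direction under every alternative run for them. Their groups did not overlap, so leaving out 1 library could not turn that direction. A ratio of counts differs from the ratio of FPKM only by a constant. Removal of the GC or gene length trend was not run for either quantity.

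The labels do not say whether the replicate numbers pair the samples. Deviations from the group means of same-numbered libraries correlated at -0.04, 0.04 and -0.01, and not every library correlated best with its own number. With 3 libraries per group, such correlations cannot exclude pairing. With the replicate block 975 genes were called, 4 of them fibrillar collagens, with log2 fold changes of -0.41 for COL1A1, -0.70 for COL3A1, -0.52 for COL5A1 and -0.26 for COL5A2. It changed no call among FAP and the 31 other genes for which it was read, and with the length trend also removed 1717 genes were called. Depth limits COL1A2, COL2A1, COL5A3, COL11A1 and COL24A1, with at most 33 counts in any library. DESeq2 gave no adjusted p for COL1A2, COL2A1 and COL11A1.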

Other observations

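COL11A2, which also encodes a fibrillar chain, was not among the 10 genes and was looked at after its values were seen. It had 113, 69 and 82 counts in LX-2Vector and 94, 47 and 69 in LX-2FAP, more than COL11A1 in every library. The groups overlapped, and the log2 fold change was -0.28 (SE 0.15, adjusted p = 0.299 by edgeR).

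Of the 14 stellate cell and myofibroblast markers 11 were tested, with 1 called lower and 1 higher. Over all tested genes 2.73% were called lower and 2.57% higher. PDGFRB and ACTA2 are named after their values were seen. PDGFRB, the receptor for platelet-derived growth factor on mesenchymal cells, had a log2 fold change of -0.38 (adjusted p = 0.0269 by edgeR), and VIM, vimentin, of 0.13 (adjusted p = 0.0372 by edgeR). With 1 library left out, PDGFRB stayed called in 2 of 6 fits (-0.48 to -0.31) and VIM in 1 of 6 (0.12 to 0.16). ACTA2, smooth muscle actin, was at 1.29 FPKM in LX-2Vector and 0.9746 FPKM in LX-2FAP (log2 fold change -0.36, adjusted p = 0.145 by edgeR). The other tested markers, also named after their values were seen, went both ways, and edgeR called none of them. RELN (0.57), HAND2 (0.26), TAGLN (0.12) and NGFR (0.04) had log2 fold changes above 0. Those of THY1 (-0.44), LHX2 (-0.18), CSPG4 (-0.13) and SPARC (-0.13) were below 0. COL7A1, which encodes anchoring fibril collagen and was named after its value was seen, had a log2 fold change of -0.58 (SE 0.13, adjusted p = 0.0241 by edgeR). For COL7A1, values with 1 library left out or under the other settings are not given here. The basement membrane chains COL4A1 and COL4A2 had log2 fold changes of -0.03 (adjusted p = 0.806 by edgeR) and -0.10 (adjusted p = 0.111 by edgeR).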
